A study of Rattus norvegicus with 12 samples.

Results

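Interferon-induced genes were followed on 12 Affymetrix Rat230_2 arrays of neural stem cells (NSCs), cells that divide in culture and can form neurons, astrocytes and oligodendrocytes. The set comprises 41 genes listed by name, chosen because interferon is known to induce them. The choice was made with earlier results of these data known, so the counts below are no independent test of the set. Among them are Isg15, the Ifit, Mx, Oas and Ifitm families, interferon regulatory factors, RNA sensors and the chemokines Cxcl10 and Cxcl11. Of these, 38 genes were measured on the array, by 46 probe sets (sets of short probes near the 3' end of a transcript) that carry a single gene symbol, among 14218 genes so measured. Gbp5, Xaf1 and Samd9l had no such probe set and are not analysed here. Irf8 was too dim to be tested, which left 37 genes.

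Cultures were made from brain and from spinal cord of Sprague Dawley rats aged 3 to 5 days. Each tissue has proliferative and differentiated cultures, and each of these 4 groups has 3 arrays. Strain and age are the same throughout. The labels name no genotype, transgene or agent, and the sources used here do not give the method or duration of differentiation. The state is read from the sample titles, where "fenhua", the romanised Chinese word for differentiation, marks the differentiated groups. No label states whether replicate arrays derive from different cultures or animals. The p-values therefore measure the spread among arrays alone, and that spread may be technical.

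Interferons are secreted proteins that warn cells of infection. Type I interferons bind the receptor of Ifnar1 and Ifnar2, the kinases Jak1 and Tyk2 are activated, and Stat2 with Irf9 takes part in a complex that binds the interferon-stimulated response element in target promoters. Interferon gamma uses another receptor and acts through gamma-activated sites. The induced genes include sensors of viral RNA, enzymes and membrane proteins that block viruses, and the factors that carry the signal onward. In the nervous system astrocytes and microglia are known responders, and many of these genes are also expressed at a low level without infection.

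Type I interferon is known to act through that element, so promoter stretches whose letters match it are shown for genes named in the results. RefSeq promoter windows (GRCr8, 250 bases before to 50 after the start) were given for 33 of the 41 genes. The response element was searched as GAAA, any 2 bases and GAAA again, on both strands (TTTC, 2 bases, TTTC on the other). A match was found in 19 of the 33 windows (57.6%), against 1312 of all 33469 windows in the table (3.92%). The gamma-activated site was searched as TTCNNNGAA, which reads the same on both strands, and was matched in 9 of the 33 windows (27.3%) against 8.87% of all. Matches describe the letters only. Each stretch below is 60 bases upstream of the start, 5' to 3' on the gene's strand, with matches to the response element in capitals; overlapping matches run together.

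Ifit3 (chr1:241527257-241527316, plus strand): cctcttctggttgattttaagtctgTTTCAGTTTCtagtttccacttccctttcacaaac
Rsad2 (chr6:48788233-48788292, minus strand): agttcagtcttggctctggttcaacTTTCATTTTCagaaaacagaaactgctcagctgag
Oas1a (chr12:41330403-41330462, plus strand): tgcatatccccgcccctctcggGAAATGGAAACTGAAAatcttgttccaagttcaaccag
Ifi44l (chr2:243328623-243328682, plus strand): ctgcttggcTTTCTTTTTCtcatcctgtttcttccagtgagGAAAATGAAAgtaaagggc
Bst2 (chr16:18255061-18255120, minus strand): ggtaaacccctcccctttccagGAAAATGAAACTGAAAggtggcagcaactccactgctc
Irf7 (chr1:205800058-205800117, minus strand): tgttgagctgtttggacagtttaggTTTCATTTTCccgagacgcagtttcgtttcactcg
Lgals3bp (chr10:104127864-104127923, minus strand): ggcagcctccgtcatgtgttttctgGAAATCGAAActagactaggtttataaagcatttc
Ifitm2 (chr1:205482349-205482408, minus strand): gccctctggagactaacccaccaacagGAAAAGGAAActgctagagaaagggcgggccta
Ifitm3 (chr1:205541768-205541827, minus strand): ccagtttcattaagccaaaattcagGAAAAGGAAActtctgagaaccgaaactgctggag
Gbp2 (chr2:234005667-234005726, plus strand): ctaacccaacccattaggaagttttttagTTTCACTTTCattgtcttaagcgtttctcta

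Levels are log2 signals, so a difference of 1 is a 2-fold change. Values of 3 arrays are given in the order of replicate number 1, 2 and 3, which pairs nothing between groups. A probe set is called dim in a group where all 3 arrays had it below their own 40th percentile (5.91 to 6.41), and the mean of those percentiles over a group is its floor. Against a group that was dim, or whose mean lay below its floor, a fold is counted from the floor and given as "at least". Calls are limma's at a Benjamini-Hochberg adjusted p under 0.05 over all 20834 probe sets tested. Array medians lay between 6.88 and 7.23. Across the tested probe sets, which are not independent replicates, replicate arrays had r between 0.940 and 0.975. The stem cell marker Sox2 was at 11.5 to 13.3 on every array, and Nes, the filament nestin, at 7.78 to 11.4, both lowest on differentiated spinal cord arrays.

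One array stood apart in the interferon-induced genes. In spinal cord proliferative replicate 1, 36 of the 38 genes had the lowest value of their group, while 37.1% of all tested probe sets did. The exceptions were Irf8 and Zbp1. The median gene lay 1.26 below the mean of replicates 2 and 3, and all tested probe sets had a median of 0.03 in the same comparison. In 25 genes the value was more than 1 log2 unit below both other arrays. The mean of the 38 genes was 8.18 on this array against 9.39 and 9.30 on replicates 2 and 3. It was 7.58, 8.14 and 7.72 on proliferative brain arrays, 10.1, 9.77 and 9.82 on differentiated brain arrays, and 10.3, 10.4 and 10.3 on differentiated spinal cord arrays. A smaller deviation was seen in brain proliferative replicate 2, which had the highest value of its group in 25 of 38 genes, with a median excess of 0.42, where 37.8% of all tested probe sets had theirs. Brain differentiated replicate 1 was highest in 28 of 38, with a median excess of 0.29, against 37.1% of all. Comparisons that use proliferative spinal cord arrays are therefore given with and without replicate 1.

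**Figure D1:**
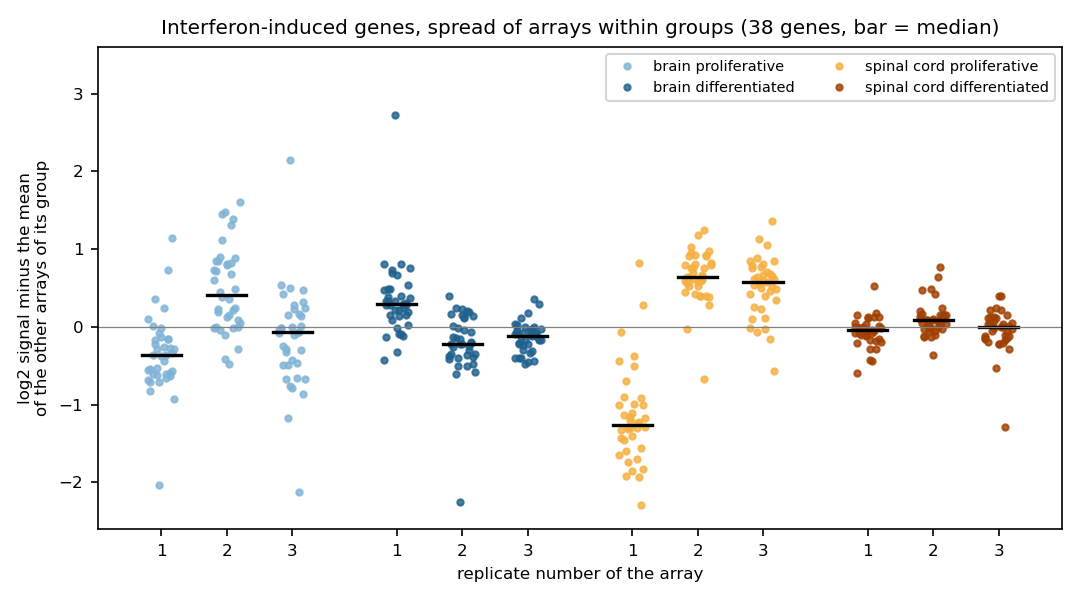
Each point is 1 of 38 interferon-induced genes on 1 array, plotted as its log2 signal minus the mean of the other arrays of the same group; black bars are medians over genes and colours are the 4 groups. Spinal cord proliferative replicate 1 lies lowest, with a median of -1.26.

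The first comparison asked how these genes changed when brain NSCs differentiated. They rose: 31 of 37 tested genes were higher in differentiated cultures, and 0 were lower, where 23.7% of all probe sets tested rose and 23.1% fell by limma's test (for the genes 0 fell at an unadjusted p under 0.05 too). For 32 genes the groups did not overlap with the differentiated arrays higher, against 29.3% of all probe sets. The median change of the 38 genes was 2.09, against 0.00 over all tested probe sets. The 5 largest called changes were those of Ifit2, Rsad2, Mx2, Isg15 and Mx1. By role, 10 of 13 antiviral effectors, 4 of 5 nucleic acid sensors, 4 of 4 tested transcription factors and all 6 genes of the ubiquitin and ISG15 system rose. Gbp2, Isg20, Ifitm1, Ifitm2, Sp100 and Zbp1 were not called. In bulk RNA, more cells of a type and more RNA per cell cannot be told apart. Markers of other cell types also rose in this comparison: 6 of 6 tested oligodendrocyte genes, 5 of 6 astrocyte genes and 7 of 13 microglial genes, with median changes of 3.99, 2.31 and 1.14. Their part in the result was not tested.

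Ifit2, which binds viral RNA and blocks its translation, had log2 signals of 6.16, 6.31 and 5.99 on proliferative and 10.86, 10.61 and 10.34 on differentiated brain arrays. The groups did not overlap, and the rise was 21.9-fold (log2 change 4.45, SE 0.25, adjusted p = 1.7e-08). Rsad2, the antiviral enzyme viperin, was at 7.77, 8.31 and 7.26 before and 11.72, 11.88 and 11.58 after, a 15.5-fold rise (adjusted p = 3.1e-06). All 3 differentiated arrays were above all proliferative ones. Isg15, a ubiquitin-like protein that is attached to other proteins, went from 8.54, 9.31 and 8.88 to 13.08, 12.27 and 12.29, which is 12.5-fold (adjusted p = 3.2e-06).

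The GTPases Mx1 and Mx2, which trap viral particles, rose together. Mx2 was at 7.47, 8.93 and 7.44 in proliferative and 11.94, 11.61 and 11.61 in differentiated cultures, a 13.7-fold rise (adjusted p = 2.4e-06). Its other probe set was dim in proliferative cultures and rose at least 12.1-fold. Mx1 was at 6.94, 8.09 and 6.35 before and 11.24, 10.42 and 10.60 after, 12.3-fold higher (adjusted p = 2.5e-05). In both genes replicate 2 was the highest proliferative array and still lay below every differentiated one. Since the genes are close relatives, probes of either may also bind the other's RNA. The same holds for the Ifitm genes and for Oas1a and its copies.

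Other antiviral effectors rose in brain by 2.37-fold (Bst2, tetherin, which holds budding virus at the cell surface) to 11.4-fold (Oas1a, an enzyme that activates an RNA-cutting nuclease). The kinase Cmpk2 rose 6.95-fold and Oasl 3.78-fold. Ifit3, the partner of Ifit2, was dim in proliferative cultures at 6.02, 5.75 and 5.57, and rose at least 8.95-fold to 9.37, 9.43 and 9.00. Isg20, a nuclease of viral RNA, was at 7.57 ± 0.36 before and 7.57 ± 0.23 after (SD, n = 3; adjusted p = 0.98).

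Among the sensors Zbp1 was the one not called. Dhx58, the helper helicase LGP2, rose at least 7.41-fold from 5.57, 6.36 and 5.50 to 9.54, 8.66 and 8.79 (adjusted p = 8.9e-06). Ddx58, the RNA sensor RIG-I, rose 5.77-fold, Eif2ak2, the RNA-activated kinase PKR, 3.51-fold and Ifih1, the sensor MDA5, 2.36-fold. Of the factors, Irf7, which amplifies interferon production, rose 5.66-fold, Stat2 4.98-fold, Irf9 2.23-fold and Irf1 1.40-fold. The Irf1 call was lost after median centring (log2 change 0.34, adjusted p = 0.12). It was also lost without brain proliferative replicate 2 or brain differentiated replicate 2. Bst2 had an adjusted p of 0.024, which was 0.053 without a mean-variance trend. The Bst2 call was also lost without replicate 1 or replicate 3 of either brain group.

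The ubiquitin and ISG15 system comprised, besides Isg15, Usp18, the protease that removes ISG15 and dampens the receptor, at 8.58-fold, the ligases Dtx3l at 4.51-fold, Herc6 at no less than 3.21-fold and Trim25 at 3.99-fold, and the conjugating enzyme Ube2l6 at 3.16-fold. Parp9, the partner of Dtx3l, rose 5.20-fold and Parp14 3.30-fold. The chemokines Cxcl11 and Cxcl10, which attract T cells, rose 4.65-fold and 3.44-fold. Ifi44l rose at least 8.60-fold, the secreted Lgals3bp 6.37-fold and Ifi27 4.52-fold.

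**Figure D2:**
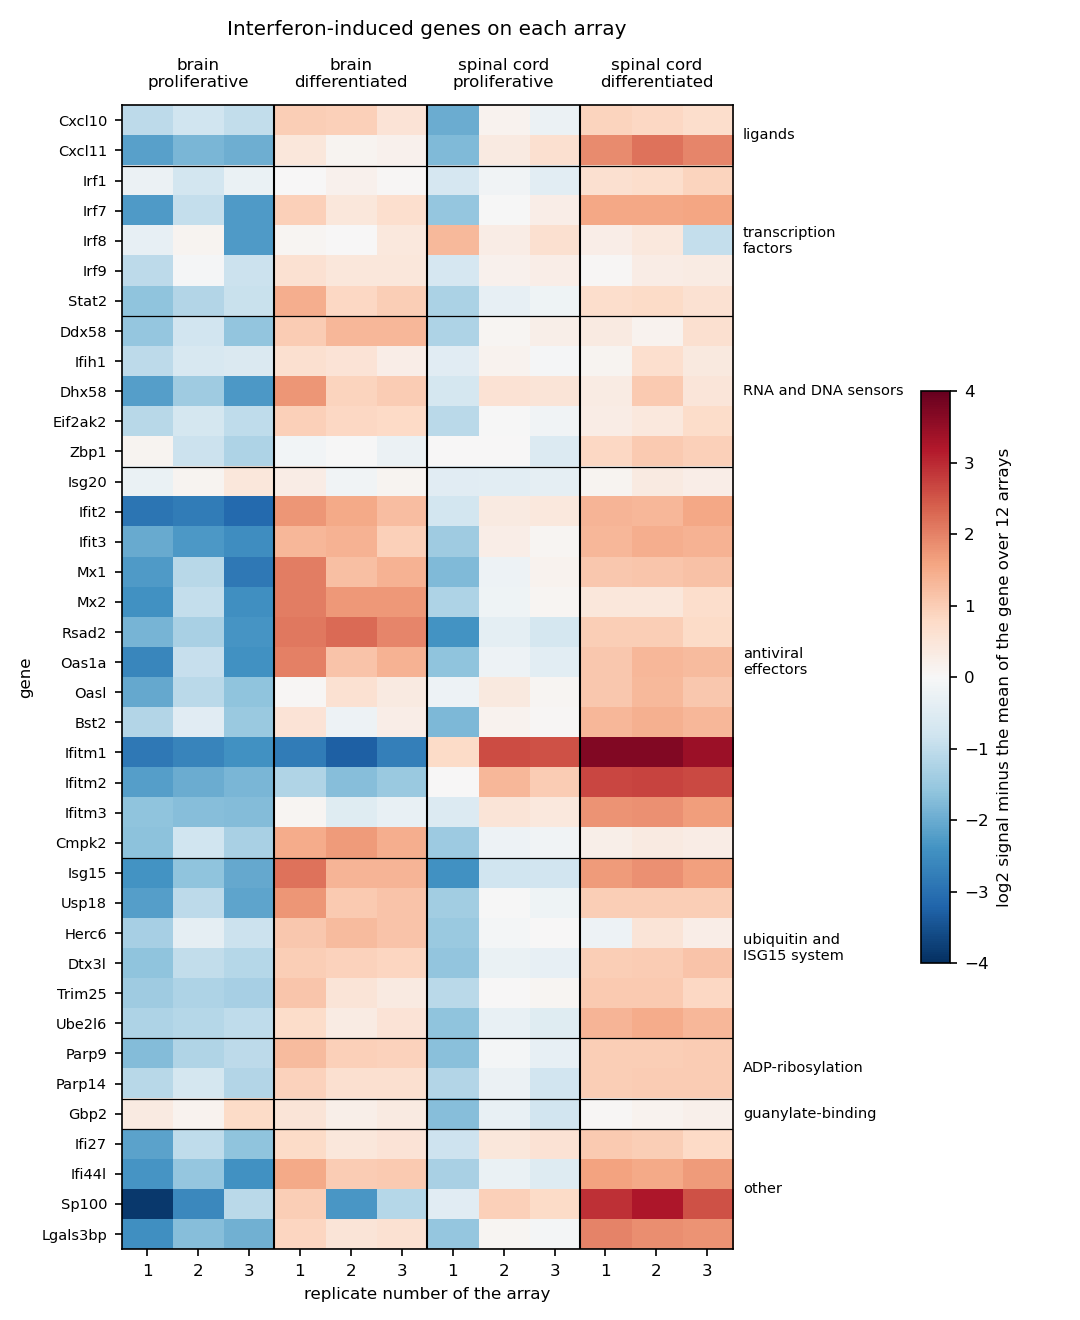
Heat map of 38 interferon-induced genes (rows, grouped by role) on 12 arrays (columns, by group and replicate number); colour is the log2 signal minus the gene's mean over all arrays. Differentiated arrays of both tissues mostly lie above the gene's mean, and Ifitm1 and Ifitm2 lie below it on every brain array.

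Spinal cord cultures were asked the same question. There 32 of 37 tested genes rose and 0 fell, where 18.3% of all probe sets tested rose and 22.0% fell by limma's test (0 of the genes fell at an unadjusted p under 0.05 too). For 32 genes all differentiated arrays lay above all proliferative ones, against 23.4% of all probe sets. The median change of the 38 genes was 1.50, against -0.05 over all tested probe sets. Without spinal cord proliferative replicate 1, 28 rose and 0 fell, where 19.1% of all probe sets rose and 21.5% fell, and the median change was 1.06. Calls were lost without that array for Mx2, Ifi27, Sp100 and Cmpk2. That array was not the only one to matter for them. Counting all alternative analyses, the call was lost in 11 for Mx2, 10 for Ifi27, 6 for Cmpk2 and 3 for Sp100. The RNA sensors Ddx58, Ifih1 and Dhx58, the ligase Herc6 and the factor Irf9 were not called in either analysis of this comparison. In other alternatives Ifih1 was called higher after median centring, after quantile normalization and without spinal cord differentiated replicate 1. Ddx58 was called higher without spinal cord proliferative replicate 3.

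Isg15 had log2 signals of 8.50, 10.13 and 10.17 on proliferative and 12.64, 12.74 and 12.55 on differentiated spinal cord arrays, a rise of 8.26-fold (adjusted p = 1.9e-05). The groups did not overlap, and without replicate 1 the rise was 5.64-fold (adjusted p = 2.3e-06). Lgals3bp, a secreted glycoprotein, went from 9.54, 11.19 and 11.02 to 13.09, 12.96 and 12.88, 5.25-fold, and 3.66-fold without replicate 1. Ifi44l was at 6.74, 7.77 and 7.50 before and 9.62, 9.55 and 9.71 after, 4.90-fold, and 3.98-fold without it. These genes stayed called with either set of arrays.

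Cxcl11 was at 6.44, 8.58 and 8.88 in proliferative and 10.10, 10.38 and 10.17 in differentiated spinal cord cultures, 4.76-fold higher (adjusted p = 0.0012). The value depends on replicate 1, without which it was 2.80-fold (adjusted p = 1.4e-05). Sp100, a protein of nuclear bodies, rose at least 4.56-fold from 5.19, 6.60 and 6.39 to 8.57, 8.87 and 8.20 (adjusted p = 0.025, and 0.081 without replicate 1). Ube2l6 rose 4.51-fold, Rsad2 4.19-fold, Irf7 3.96-fold, Oas1a 3.91-fold and Bst2 3.72-fold. Without replicate 1 these were 3.40-fold, 2.73-fold, 2.68-fold, 2.90-fold and 2.39-fold.

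The genes not called in brain were among those that rose in spinal cord. Ifitm1, a membrane protein that blocks virus entry, had proliferative values of 9.92, 11.78 and 11.70 and differentiated values of 12.86, 12.88 and 12.59, a 3.12-fold rise (adjusted p = 0.0028, and 2.05-fold without replicate 1). Its relative Ifitm2 went from 11.11, 12.44 and 12.12 to 13.77, 13.80 and 13.75, 3.69-fold (adjusted p = 4.4e-05). In brain the values were 6.30, 6.52 and 6.73 before and 6.36, 5.91 and 6.43 after for Ifitm1. For Ifitm2 they were 8.91, 9.13 and 9.26 before and 9.89, 9.41 and 9.62 after (adjusted p = 0.09, or 0.0029 when spinal cord proliferative replicate 1 is left out of the shared spread). Gbp2, a guanylate-binding protein that attacks the vacuoles of microbes, rose 2.08-fold in spinal cord, where it was at 10.13, 11.51 and 11.05 before and 11.89, 11.95 and 12.03 after. Isg20 rose 1.57-fold. Zbp1, a sensor of left-handed nucleic acid, was dim in the other 3 groups and passed the filter only through differentiated spinal cord arrays, where it was at 6.65, 6.85 and 6.76, at least 1.32-fold up. Its call was lost without the filter and without brain differentiated replicate 2 or spinal cord proliferative replicates 2 or 3. Without any 1 of the differentiated spinal cord arrays Zbp1 did not pass the filter.

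Across both tissues, 26 genes rose in each, 5 rose in brain and were not called in spinal cord (Ddx58, Dhx58, Herc6, Ifih1, Irf9), and 6 were the converse (Gbp2, Ifitm1, Ifitm2, Isg20, Sp100, Zbp1). Zbp1 was tested only because it was high on differentiated spinal cord arrays, so its place among the 6 is no evidence of a rise. No gene rose in 1 tissue and fell in the other. Of all probe sets tested, 23.7% rose in brain and 18.3% in spinal cord. The shares that rose in both or in 1 alone were not counted. The test of the difference itself, the spinal cord response minus the brain response, called 12 of 37 genes lower and 4 higher, where 21.7% of all probe sets tested were lower and 18.8% higher. Without spinal cord proliferative replicate 1 it called 26 lower and 3 higher, where 23.2% and 21.1% of all were. The median difference was -0.71 with all arrays and -1.11 without that array. Both responses are differences within a tissue and share no array.

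The 12 genes with a smaller response in spinal cord were 6 of 13 antiviral effectors, 3 of 5 sensors, Usp18, Ifi27 and Stat2; 2 other effectors, Ifitm1 and Ifitm2, had a larger one. Oligodendrocyte markers were lower in 6 of 6 cases by the same test and microglial markers in 8 of 13, with 1 higher. Astrocyte markers were lower in 3 of 6 cases, with 1 higher. Fibroblast and mural cell markers were higher in 4 of 7, with 0 lower. The part of these cell types was not tested. For Ifit2 the spinal cord values were 8.36, 9.46 and 9.52 before and 10.45, 10.41 and 10.64 after, a 2.61-fold rise beside 21.9-fold in brain. The difference of log2 responses was -3.07 (SE 0.35, adjusted p = 1.5e-05). The differentiated levels of the tissues overlapped for this gene, and the proliferative levels did not. For Mx2 the spinal cord values were 8.64, 9.72 and 9.96 before and 10.34, 10.33 and 10.58 after, with a difference of responses of -2.79 (SE 0.52, adjusted p = 0.00073). Its rise in spinal cord, 1.97-fold, was not called by the other probe set (log2 change 0.94, adjusted p = 0.25).

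Dhx58 was at 7.09, 8.36 and 8.30 in proliferative and 8.11, 8.83 and 8.27 in differentiated spinal cord cultures, so that the groups overlapped. The difference from its brain response was -2.71 (SE 0.51, adjusted p = 0.0008), and both other probe sets were called in the same direction, at -3.03 and -4.12. For Cmpk2, a mitochondrial nucleotide kinase, spinal cord values were 7.58, 8.85 and 8.91 before and 9.29, 9.39 and 9.34 after, and brain values 7.39, 8.25 and 7.75 before and 10.54, 10.73 and 10.51 after. Its difference of responses was -1.90 (SE 0.41, adjusted p = 0.0024). Mx1, Rsad2, Ddx58, Ifit3, Usp18, Ifi27, Stat2 and Eif2ak2 were lower by differences of -1.89 to -0.92. Both probe sets of Stat2 and of Cmpk2 were called. The calls of Stat2 and Eif2ak2 were each lost in 11 of 20 alternative analyses, those of Mx1 and Ifi27 in 9 and that of Usp18 in 4.

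The larger responses of spinal cord were in 4 genes. For Ifitm1 the difference of responses was 1.93 (SE 0.52, adjusted p = 0.009), for Ifitm2 1.34 (SE 0.35, adjusted p = 0.0076), for Gbp2 1.12 (SE 0.36, adjusted p = 0.024) and for Irf1 0.65 (SE 0.22, adjusted p = 0.031). Without spinal cord proliferative replicate 1 they were 1.32, 0.95, 0.73 and 0.53, and Irf1 was no longer called (adjusted p = 0.055). Ifitm3, the third relative, rose 2.74-fold in brain and 3.10-fold in spinal cord, and the difference of 0.18 was not called (SE 0.31, adjusted p = 0.68). Cxcl11 had a difference of 0.03 that turned to -0.73 and was called without replicate 1 (adjusted p = 0.019). Isg15, with -0.59 (SE 0.51, adjusted p = 0.39) on all arrays, was called without it at -1.14 (adjusted p = 0.0087).

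**Figure D3:**
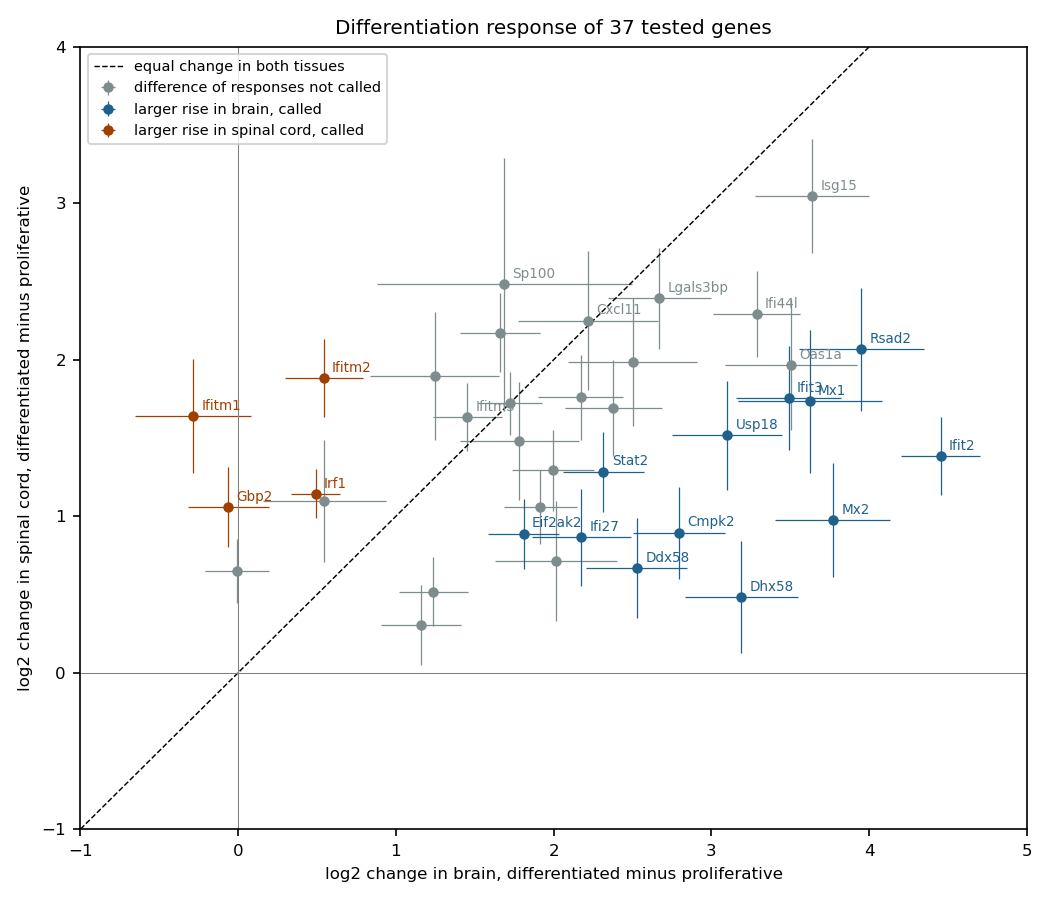
Log2 change with differentiation of 37 tested interferon-induced genes in brain (x axis) and spinal cord (y axis), with SE bars; blue and brown points are genes whose 2 responses differed by the test. Ifit2 lies farthest right at 4.45 in brain against 1.39 in spinal cord, while Ifitm1 lies at -0.29 and 1.64.

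**Figure D4:**
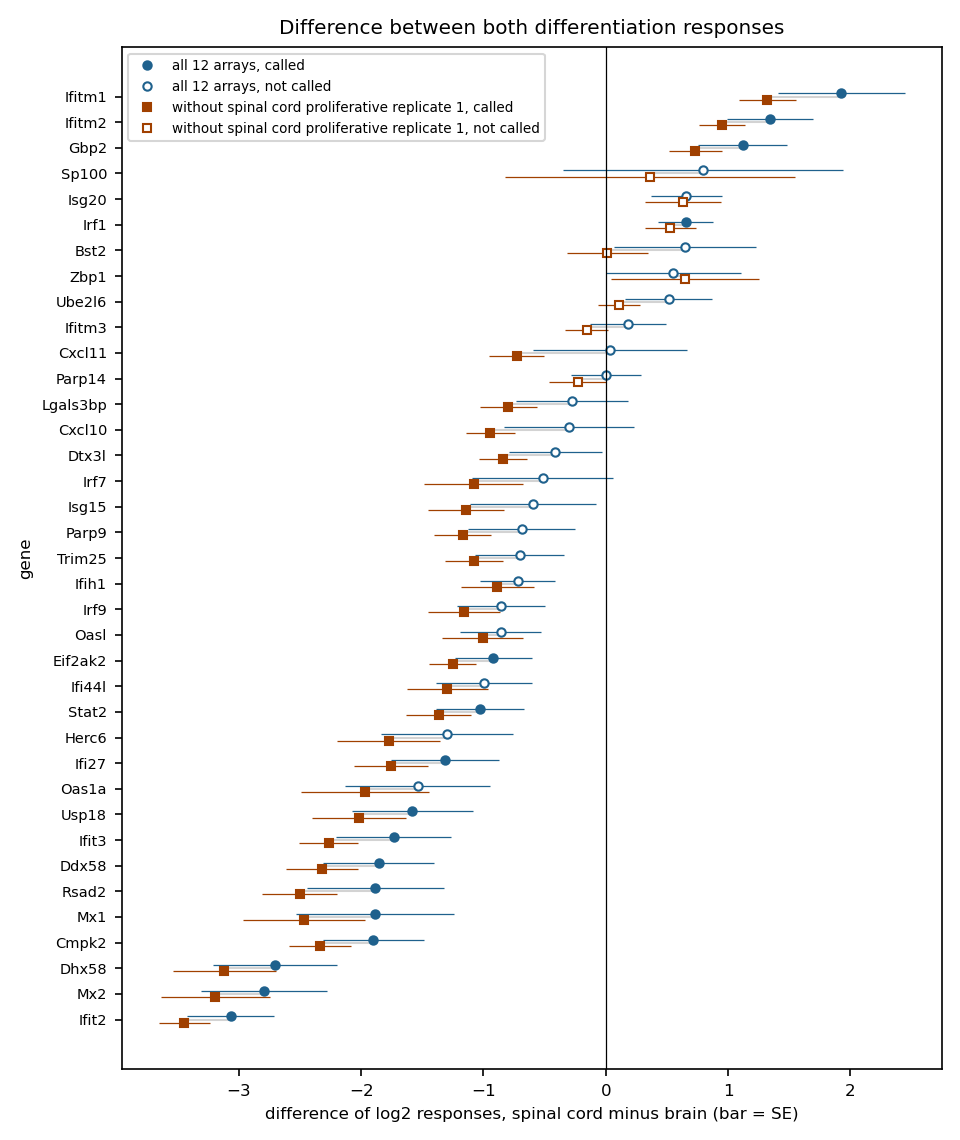
Difference of log2 responses, spinal cord minus brain, for the 37 tested genes with SE bars, from all 12 arrays (circles) and without spinal cord proliferative replicate 1 (squares); filled symbols were called. Most genes move left without that array, and 26 are then called below 0 in place of 12.

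Both tissues were also compared within each state; these comparisons use the same arrays as the responses above. In proliferative cultures 20 of 37 genes were higher in spinal cord, where 19.4% of all probe sets were, and 1, Gbp2, was lower, where 18.5% were. The median difference of the 38 genes was 1.0, against -0.02 over all. Without spinal cord proliferative replicate 1, 32 were higher and Gbp2 alone lower, where 20.6% and 21.0% of all were. Among the 20, the call was lost in 8 alternative analyses each for Oas1a and Ifih1 and in 7 for Ddx58. It was lost in 5 each for Irf7 and Mx1 and in 3 for Usp18. Each of these calls was lost without brain proliferative replicate 1, and without either of spinal cord proliferative replicates 2 and 3. Brain proliferative cultures had the lowest mean of the 4 groups in 34 of the 38 genes, a count not made over all probe sets.

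Ifitm1 was 24.5-fold higher in proliferative spinal cord than in proliferative brain cultures (log2 difference 4.62, SE 0.37, adjusted p = 5e-07, and 37.3-fold without replicate 1) and Ifitm2 6.92-fold (adjusted p = 1.5e-06). Ifit2 was 7.80-fold and Dhx58 at least 3.51-fold higher. Sp100 was called at a log2 difference of 2.94, but its brain values of 1.77, 3.05 and 4.55 were dim and its mean in proliferative spinal cord lay below the floor, so no fold is given. Irf9 was not called by its brighter probe set (log2 difference 0.58, adjusted p = 0.093) and was by its other (0.81, adjusted p = 0.038). Gbp2 was at 12.19, 11.97 and 12.58 in brain, above all 3 spinal cord arrays, and 2.55-fold lower in spinal cord (adjusted p = 0.001). Isg15, Rsad2, Cxcl10, Stat2, Parp9, Dtx3l, Eif2ak2, Cmpk2, Ube2l6, Bst2, Irf9 and Parp14 were not called on all arrays and were called higher when replicate 1 was left out, Isg15 then at 2.36-fold (adjusted p = 0.00076). Cmpk2 and Irf9 were also called without brain proliferative replicate 2, and Stat2 without brain proliferative replicate 3. In this state all 6 oligodendrocyte and all 13 microglial markers tested were higher in spinal cord as well. So were 6 of 7 fibroblast and mural cell markers, with 0 lower, while 3 of 6 astrocyte markers were higher and 2 lower. The part of these cell types was not tested.

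In differentiated cultures 11 genes were higher in spinal cord and 4 lower, where 18.5% and 22.9% of all probe sets were, with a median difference of 0.11 against -0.06 over all. The 11 include Zbp1, which passed the filter only through these spinal cord arrays. Without spinal cord proliferative replicate 1, which enters only through the shared spread, 12 were higher and 6 lower, where 20.6% and 24.9% of all were. Among the Ifitm genes, Ifitm1 was at least 89.0-fold higher (adjusted p = 1.1e-08), Ifitm2 17.6-fold (adjusted p = 2.1e-08) and Ifitm3 3.98-fold. Ifitm3 had values of 12.28, 11.71 and 11.89 in brain and 13.98, 14.02 and 13.85 in spinal cord. Sp100 was at least 4.75-fold higher, over brain values of 6.63, 3.31 and 4.49. Cxcl11 was 3.38-fold higher, and its differentiated brain values of 8.66, 8.33 and 8.38 lay below all 3 spinal cord ones. Mx2 was 2.46-fold lower in spinal cord (1 of its 2 probe sets), Cmpk2 2.38-fold, Rsad2 2.30-fold and Ddx58 1.81-fold. The call was lost in 9 alternative analyses for Ddx58, in 6 for Rsad2, and in 6 for Bst2, a gene among the 11 higher ones. For each of these genes it was lost whichever differentiated spinal cord array was left out. Isg15 was at 12.55 ± 0.46 in brain and 12.64 ± 0.10 in spinal cord (SD, n = 3; adjusted p = 0.86).

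In order of level, 20 of the 38 genes had their highest mean in differentiated spinal cord, 16 in differentiated brain, and 1 each in proliferative brain (Gbp2) and proliferative spinal cord (Irf8, dim in the other 3 groups and at 6.96, 5.97 and 6.31 there). This order was not counted over all probe sets. The test of the tissues in the differentiated state did not call 22 of the 37 tested genes.

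Genes upstream of the induced set were taken from a list of 44 ligands, receptors, kinases, regulators and sensors, of which 32 had a probe set and 28 were tested. In brain differentiation 6 of the 28 rose and 7 fell, near the 23.7% and 23.1% of all probe sets. In spinal cord 11 rose and 2 fell, where 18.3% and 22.0% of all did. The median changes were 0.19 and 0.34. The interferon genes Ifnb1, Ifng and Ifnk, and Socs1, an inhibitor of the kinases, were dim in all 4 groups. The receptor chain Ifnar1 was at 8.36 ± 0.14 and 8.76 ± 0.10 in brain (SD, n = 3 each; adjusted p = 0.069) and rose in spinal cord from 8.11 ± 0.35 to 8.89 ± 0.09 (adjusted p = 0.002). Ifnar2 fell in brain from 9.73 ± 0.09 to 9.02 ± 0.24 (adjusted p = 0.003). Ifngr2, a chain of the interferon gamma receptor, fell in brain by 0.47 and rose in spinal cord by 0.89, and the difference of responses was called (1.36, adjusted p = 8.7e-05). Jak2, a kinase of the same receptor, was not called in brain (log2 change -0.13) and rose in spinal cord from 9.03 ± 0.30 to 10.16 ± 0.02 (adjusted p = 4.2e-05). Tyk2 fell in brain by 0.79, and Irf3, the factor that starts interferon transcription, fell by 1.48 in brain and by 0.65 in spinal cord. Ifnlr1, the receptor chain of type III interferons, was dim in both brain groups and at 6.63 ± 0.69 and 7.11 ± 0.47 in spinal cord.

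Further interferon-induced genes outside the set numbered 46, of which 36 had a probe set and 33 were tested. In brain 22 of the 33 rose and 2 fell, with a median change of 1.25, and in spinal cord 24 rose and 0 fell, with a median of 1.21; the shares of all probe sets were 23.7% and 23.1% in brain and 18.3% and 22.0% in spinal cord. Irgm and Igtp, GTPases of cell-autonomous defence, rose in brain by 3.81 and 2.93 and in spinal cord by 2.59 and 2.04. Rnf213, a large ligase, rose by 2.98 and 1.92. The difference of responses was called lower for 7 and higher for 6 of the 33, shares near the 21.7% and 18.8% of all probe sets. Slfn3, whose current symbol is Slfn4, was among the higher ones: it fell in brain by 1.29 and rose in spinal cord by 2.46 (difference 3.76, adjusted p = 1.4e-05). It was dim in differentiated brain, so the size of the fall and of the difference is uncertain. Its other probe set did not pass the filter. Gbp4 rose in spinal cord by 2.79 and was not called in brain (0.18), with a difference of 2.61 (adjusted p = 0.00027). Ly6e, a surface protein, showed the same pattern with a difference of 1.35 (adjusted p = 0.00088). Lgals9, a galectin, was the converse, with a rise of 3.72 in brain, 0.28 in spinal cord and a difference of -3.44 (adjusted p = 0.00025).

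Markers of other cell types moved in part with these genes. Microglia and macrophage markers were measured for 17 of 19 genes, 13 of them tested. In brain differentiation 7 of the 13 rose and 1 fell, with a summed linear signal of 969 to 1187 before and 2168 to 2426 after. In spinal cord 1 rose and 5 fell, and the sum was 10708, 6553 and 7230 on proliferative and 5833 to 6131 on differentiated arrays. Spinal cord proliferative replicate 1, where the interferon-induced genes were lowest, had the highest microglial sum and the lowest fibroblast and mural cell sum of its group. Its astrocyte sum was also the lowest, at 17245 against 33358 and 29526 on replicates 2 and 3. By the mean log2 signal of the astrocyte genes it was not, at 10.19 against 10.74 and 10.05. Cx3cr1, Itgam, Trem2 and P2ry12 were dim in all 4 groups, and so were all 8 measured markers of T, NK and B cells. Fibroblast and mural cell genes summed to 793 to 1425 on brain arrays, to 23792, 42104 and 35884 on proliferative and to 84140 to 97656 on differentiated spinal cord arrays. Oligodendrocyte genes, 6 tested, rose in brain in 6 of 6 cases, and in spinal cord 0 rose and 2 fell. Proliferative brain cultures had a summed signal of 2831, 5129 and 3185 for them, differentiated brain cultures one from 37147 to 46129, and the 6 spinal cord arrays one from 34940 to 41049. Astrocyte genes rose in 5 of 6 cases in brain, and in 4 of 6 with 2 falls in spinal cord. Of 7 neuron genes, 1 was called higher and 4 lower with differentiation in brain, and 5 were lower in spinal cord. Of 8 neural stem and progenitor genes, 5 were called higher and 2 lower after differentiation in brain, against 2 higher and 4 lower in spinal cord. The shares of all probe sets called higher and lower were 23.7% and 23.1% (brain) and 18.3% and 22.0% (spinal cord). The part of these cell types in the results was not tested.

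The 3' minus 5' signal of Gapdh, a sign of RNA quality, lay between 0.08 and 0.13 in proliferative brain cultures and between -0.13 and 0.07 in differentiated ones. In spinal cord the ranges were -0.01 to 0.10 and -0.08 to 0.06. For Actb this measure ranged from 0.77 to 0.84 in proliferative brain cultures and from 0.73 to 0.81 after differentiation. It was 0.75, 0.99 and 0.69 on proliferative and 0.99 to 1.01 on differentiated spinal cord arrays, and its part in the results was not tested.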

How the data were processed

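The authors deposited 1 log2 signal for each probe set and array; the submitters' processing notes name MAS5 and affy, without versions. On the linear scale each array's mean, with the outer 2% trimmed, was 500, the scaling of MAS5, and genes were not centred. The 57 control probe sets were left out. Testing required a signal above the array's own 40th percentile on 3 or more of 12 arrays, which kept 20834 of 31042. Members were matched by platform symbol, current or former (Ddx58 is listed as Rig1), and the probe set with the highest mean stood for its gene. One model with a mean per group was fitted with limma 3.58.1 (lmFit, eBayes with trend) in R 4.3.3, tested on simulated data. Microarray precision is limited by the number of arrays. Members and lists were chosen with earlier results of these data known. Every member was to be named by role, with array values for the 5 largest called changes of each comparison and for genes whose probe sets disagreed. Same-numbered arrays did not pair: correlations of their deviations ran from -0.12 to 0.05. Alternatives were array scaling, pseudocount, filters, trend, a replicate block, 2-group fits, second probe sets and leaving out each array.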

Additional observations from a re-analysis of the deposited data

Results flagged for a closer look

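The differentiation responses of both tissues differed by the test of the difference for 16 genes. The spinal cord response minus the brain response was lower for Ifit2 (-3.07), Mx2 (-2.79), Dhx58 (-2.71), Cmpk2 (-1.90), Mx1 (-1.89), Rsad2 (-1.88), Ddx58 (-1.86), Ifit3 (-1.74), Usp18 (-1.58), Ifi27 (-1.31), Stat2 (-1.03) and Eif2ak2 (-0.92). It was higher for Ifitm1 (1.93), Ifitm2 (1.34), Gbp2 (1.12) and Irf1 (0.65). Values are log2. Over 20 alternative analyses, the call was lost in 11 for Stat2 and Eif2ak2, in 9 for Mx1 and Ifi27, in 7 for Irf1, in 4 for Usp18 and in 3 for Gbp2. It was lost in 0 of the 20 for Ifit2, Mx2, Dhx58, Cmpk2, Rsad2, Ddx58, Ifit3, Ifitm1 and Ifitm2.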

How the results depend on the processing

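In brain differentiation 30 to 32 genes rose and 0 fell whichever array was left out. In spinal cord differentiation 26 to 32 rose and 0 fell, and the 26 did not come from leaving out spinal cord proliferative replicate 1. Leaving out 1 array at a time, the median change in spinal cord ran from 1.06 to 1.80, with the lowest value without that array. In the proliferative tissue comparison higher calls ran from 14 to 32 and lower calls from 1 to 2 (2 without brain proliferative replicate 1). In the differentiated one lower calls ran from 2 to 6, with 2 when brain replicates 1 or 2 or any spinal cord replicate of that state was left out. For the difference of responses lower calls ran from 7 (without brain proliferative replicate 1 or spinal cord proliferative replicates 2 or 3) to 26, and higher calls from 2 (without brain proliferative replicate 3) to 4. Median centring and quantile normalization each gave 2 lower genes in the proliferative comparison in place of 1, the second being Isg20. Differentiated lower calls numbered 2 without a mean-variance trend and 9 with only the 2 groups fitted, in place of 4. With the replicate block the difference of responses had 15 lower genes in place of 12. For Cxcl11 the difference of responses, 0.03 on all arrays, ran from -0.73 (without spinal cord proliferative replicate 1) to 0.49 (without replicate 3 of that group). Median centring moved the median of all probe sets by -0.15 in brain differentiation, -0.21 in the proliferative comparison and 0.23 in the difference of responses. Dim probe sets such as Zbp1, Irf8 and Sp100 in brain have no reliable order.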
